A study of Rattus norvegicus with 90 samples.

Results

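Rat cardiomyocytes, the contractile cells of the heart muscle, were exposed for 9 h to the high dose (1.50 mM) of thioacetamide-S-oxide or to vehicle. The samples were chosen by their labels alone: 5 libraries of the high dose and 5 of vehicle, that is 10 of the 90 libraries of the series. The other libraries held hepatocytes, renal proximal tubular epithelial cells and further cardiomyocytes (0.50 mM at 9 h and both doses at 24 h), each with its own vehicle, 5 libraries per condition. The cells came from Sprague-Dawley rats, and they were cultured before the exposure. Neither the supplier of the cardiomyocytes, nor their vehicle medium, nor their viability is given in the sources used here. Nothing states that the 5 libraries of a group came from separate animals, so the p-values measure the spread between these libraries only.

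Thioacetamide is a classical liver toxicant that is harmful only once it has been oxidised in the cell. The first oxidation gives the S-oxide, and a further one gives an unstable S-dioxide that binds to amine groups of proteins and lipids. Giving the S-oxide directly to cultured cells bypasses the first step. Cardiomyocytes rely on a large set of transcripts for the sarcomere, calcium handling and oxidative metabolism, and in culture they lose parts of this specialised state.

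What was measured was poly-A RNA per transcript, as the estimated counts of Kallisto over 40071 Ensembl transcripts of the rat. The high-dose libraries were deeper, with 42937709 to 46645482 estimated counts against 19467515 to 27585600 in vehicle, so the ranges did not overlap (exact two-sided permutation test, 5 against 5, p = 0.00794, the smallest this design allows). Their fragments were also longer by the files' own measure, the difference between the length and the effective length of a transcript, which was 166 to 178 bases at the high dose and 158 to 165 bases in vehicle. Depth and fragment length therefore moved with the groups. The numbers of calls at 9 h, in all and in the cardiomyocyte-enriched class, transcripts that mark these cells by their level, are given also with all libraries thinned to 17583643 transcript counts, and with the TPM, which corrects for the effective length, whereas the other expression classes and the comparisons with 24 h and with other cell types were not repeated in these ways. In these data no identifier could be paired with a gene symbol, and 0 of the 40071 transcripts matched the gene table at hand. The cardiomyocyte label could thus not be checked against marker genes, and no pathway is described. As a check by likeness, the rank correlation (Spearman) of the level over all transcripts tested was 0.986 to 0.989 between vehicle libraries, 0.991 to 0.994 between high-dose libraries and 0.969 to 0.980 between the groups. With vehicle-treated renal cells it was 0.852 to 0.866, and with vehicle-treated hepatocytes 0.695 to 0.725. Among the libraries used for comparison, 2 stood apart. MS-158 (low dose, 9 h) held 16235601 transcript counts, a length difference of 138 bases and a rank correlation with vehicle down to 0.871. MS-178 (high dose, 24 h) had 13391250 transcript counts with 17772 transcripts detected. The principal counts and ranges that rest on either are given also without it.

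After 9 h at the high dose, 1112 of 17871 transcripts tested were higher than in vehicle (6.22% of those tested) and 1145 were lower (6.41%). A transcript was called at an adjusted p of at most 0.05 in edgeR's quasi-likelihood test and a fold change of at least about 1.5. The calls were thus close to balanced in number, with 49.3% of the called transcripts higher. This balance depends on how the libraries are scaled to each other. The share was 46.04% with upper-quartile normalization and 50.3% with limma on log2(CPM + 0.5). With limma on the TPM, taken without scaling factors between libraries, it was 57.6%. Much of the transcriptome shifted slightly: 8087 transcripts (45.3%) passed the adjusted p at any fold, while 83.4% of those tested stayed below the fold threshold. Over all transcripts tested, the median log2 fold change was 0.0065, and the central 90% ran from -0.81 to 0.83.

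Large increases were more numerous than large decreases. Of the higher transcripts, 544 rose by at least 2-fold, 176 by at least 4-fold and 76 by at least 8-fold, around a median log2 fold change of 0.99. Of the lower ones, 473 fell by at least 2-fold, 58 by at least 4-fold and 9 by at least 8-fold, around a median of -0.90. Scarce and abundant transcripts differed in how often they were called. The higher transcripts started from a median of 3.72 CPM (counts scaled to a common library size) in vehicle and reached 8.88 CPM, whereas the lower ones started from 10.6 CPM and went down to 5.44 CPM. The median vehicle level of all transcripts tested was 13.3 CPM. By the mean level of both groups, 9.23% of the transcripts below 1 CPM were called higher and 6.18% lower. Between 1 and 3 CPM these shares were 8.75% and 10.03%, between 30 and 100 CPM 4.81% and 4.29%, and from 100 CPM upward 4.23% and 6.34%. Which direction was the more frequent thus changed back and forth along the scale. Increases were most frequent below 1 CPM and decreases between 1 and 3 CPM, with 7.69% lower between 3 and 10 CPM and 5.598% between 10 and 30 CPM. Neither these shares nor the numbers by size of change were repeated at equal depth. A further 6 transcripts were listed at 0 in all vehicle libraries and at 10 or more counts in every high-dose library, and 2 showed the reverse.

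**Figure D1:**
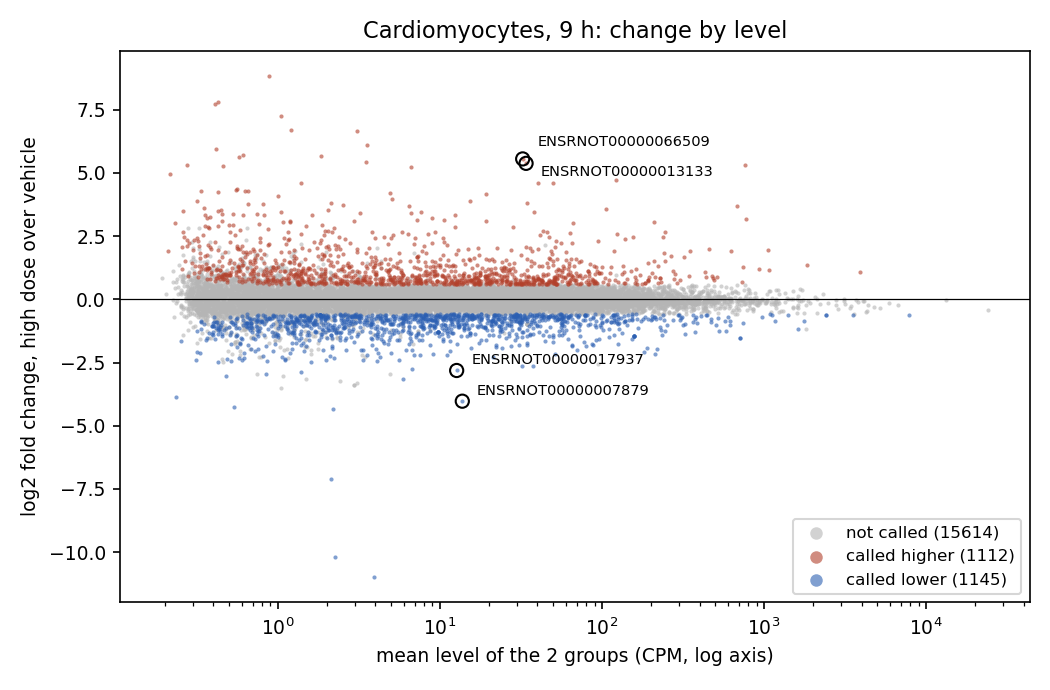
Each point is 1 of the 17871 transcripts tested, with its mean level in both groups (CPM, log axis) and its log2 fold change at 9 h, high dose over vehicle. The 1112 called higher are red, the 1145 called lower are blue, and the 4 transcripts described in the text are circled, 2 of them above 5 and 2 at -4.03 and -2.82.

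The calls were also looked at library by library. The 5 high-dose and the 5 vehicle libraries did not overlap for 963 of the higher transcripts (86.6%) and for 966 of the lower ones (84.4%), against 35.1% of all transcripts tested in either direction. Since the calls use the same 10 libraries, this is a description only. Together the transcripts called higher took 2.62% to 2.69% of the transcript counts of a vehicle library and 6.06% to 6.76% of a high-dose library. Those called lower took 8.38% to 8.97% in vehicle and 4.42% to 5.72% at the high dose. Thinning all libraries to 1 depth gave 999 higher and 1099 lower transcripts, of which 955 and 1023 were among those called at full depth. With limma on log2(TPM + 0.5), 1040 were higher and 765 lower, and in neither setting was a transcript called in the opposite direction.

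The share of decreases differed between length classes. Of the transcripts of at least 5000 bases, 10.5% were called lower and 5.99% higher, whereas between 500 and 1000 bases 4.22% were lower and 5.50% higher. The classes between rose from 5.56% to 7.13% lower, but the shortest transcripts, under 500 bases, broke this order with 7.78% lower and 4.35% higher. On the TPM scale the share called lower at 5000 bases and over was 5.87%, against 3.94% to 4.22% in the shorter classes. With limma on log2(CPM + 0.5) this share was 9.53%, so that the same tool on the CPM scale gave a value close to the first. The TPM also change what a pseudocount of 0.5 amounts to for a long transcript. They were taken without the scaling factors between libraries (TMM) that the CPM had. The median log2 fold change over all transcripts tested was 0.063 on the TPM scale and 0.012 with limma on log2(CPM + 0.5). The unit, the pseudocount and the scaling were not told apart. Whether fragment length takes part was not tested.

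The 4 transcripts described next were the 2 largest increases and the 2 largest decreases whose mean level (log2 CPM) reached 3 and whose groups did not overlap. By this rule 520 higher and 545 lower transcripts qualified. Their levels are CPM scaled over all libraries used, and their roles are left out because no gene could be assigned. As they were selected by the size of their change, the values at 9 h are a description, and those at other times, doses and cell types come from libraries the selection did not use, apart from the vehicle libraries that the low dose at 9 h shares. A test of the difference between 2 responses does use the 9 h values that chose these transcripts, so a larger response in cardiomyocytes at 9 h is partly built into it.

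ENSRNOT00000066509, a transcript of 7939 bases, had 1.73, 0, 1.42, 2.01 and 1.42 CPM in the 5 vehicle libraries, MS-151 to MS-155. At the high dose it had 66.5, 61.4, 65.2, 64.1 and 60.3 CPM in MS-161 to MS-165. All high-dose libraries were far above the highest vehicle library, and the 0 was that of MS-152. The log2 fold change was 5.55 (SE 0.26, adjusted p = 2.37e-08), and 5.27 without MS-152. Its estimated counts were not whole, which means that Kallisto divided reads between it and other transcripts, so the value is uncertain to that extent. At 24 h, the 1.50 mM libraries held 84.1 to 96.0 CPM against 1.47 to 3.18 CPM in vehicle (log2 fold change 5.25, SE 0.16, adjusted p = 2.14e-09). A difference between the responses at 9 and 24 h was not found (0.30 on the log2 scale, SE 0.36, adjusted p = 0.631). Without MS-178 the range at 24 h was the same and the difference 0.29 (adjusted p = 0.630). Renal cells, which received 0.5 mM, had 9.70 ± 0.59 CPM in vehicle and 10.6 ± 1.21 CPM at their high dose (SD, n = 5, adjusted p = 0.142). Hepatocytes at 0.125 mM went the other way, from 2.49 ± 0.46 to 0.247 ± 0.376 CPM (SD, n = 5, log2 fold change -3.34, SE 0.86, adjusted p = 0.00695).

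ENSRNOT00000013133 has 888 bases and rose from a similarly low level. Vehicle libraries had 1.77, 1.91, 1.90, 1.06 and 1.27 CPM. The high-dose libraries had 52.0, 61.04, 67.7, 77.6 and 73.7 CPM, again without overlap. This gave a log2 fold change of 5.38 (SE 0.16, adjusted p = 6.74e-10). Some of its counts, too, were shared with other transcripts. The increase was also present at 24 h, from 0.359 to 1.25 CPM in vehicle to 38.7 to 53.4 CPM, and the responses at both times were not found to differ (-0.32 on the log2 scale, SE 0.30, adjusted p = 0.517). Without MS-178 the highest of the 24 h libraries was 51.2 CPM and the difference -0.25 (adjusted p = 0.609). In renal cells it rose from 0.621 ± 0.221 to 4.11 ± 0.61 CPM (SD, n = 5, log2 fold change 2.73, SE 0.22, adjusted p = 6.51e-07), which was 2.62 less than in cardiomyocytes on the log2 scale (SE 0.32, adjusted p = 1.61e-06). Hepatocytes expressed it without any exposure, at 38.2 ± 3.49 CPM, and had 32.2 ± 1.62 CPM at their high dose (SD, n = 5), a change below the fold threshold.

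Of the decreases, that of ENSRNOT00000007879 (729 bases, whole counts in all 10 libraries) was the largest by the rule. It had 26.3, 25.4, 26.5, 22.6 and 28.7 CPM in vehicle and 2.13, 1.65, 1.66, 1.08 and 1.42 CPM at the high dose. Every high-dose library was thus far below every vehicle library (log2 fold change -4.03, SE 0.14, adjusted p = 1.78e-09). By 24 h the direction had turned. The vehicle libraries of that time held 6.06 to 7.36 CPM and the high-dose libraries 9.94 to 20.03 CPM (log2 fold change 1.23, SE 0.21, adjusted p = 9.80e-04). The responses at 9 and 24 h differed by -5.26 on the log2 scale (SE 0.27, adjusted p = 1.26e-10), with the 9 h response the lower. Without MS-178 the log2 fold change at 24 h was 1.15 and the difference -5.20 (adjusted p = 4.73e-10). The levels of the 2 vehicle groups themselves, a mean of 25.9 CPM at 9 h and of 6.53 CPM at 24 h, lay apart as well. Renal cells held more of it, at 110 ± 3.99 CPM in vehicle and 67.6 ± 3.89 CPM at the high dose (SD, n = 5, log2 fold change -0.69, SE 0.04, adjusted p = 2.30e-08).

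ENSRNOT00000017937 (8289 bases, whole counts) had 20.8, 26.8, 22.0, 21.9 and 19.5 CPM in vehicle. It fell to 4.37, 3.71, 2.89, 2.34 and 2.47 CPM at the high dose, with no overlap. The log2 fold change was -2.82 (SE 0.16, adjusted p = 1.37e-07). At 24 h it was still lower than in vehicle, with 5.27 to 11.8 CPM against 25.7 to 35.7 CPM (log2 fold change -1.57, SE 0.18, adjusted p = 6.28e-05), a smaller response than at 9 h (difference -1.25, SE 0.25, adjusted p = 0.00142). The 5.27 CPM was that of MS-178. Without it the 24 h libraries held 9.62 to 11.8 CPM, with a log2 fold change of -1.45 and a difference of -1.38 (adjusted p = 7.39e-05). In renal cells it fell as well (log2 fold change -1.16, SE 0.13, adjusted p = 9.76e-06). Hepatocytes had 0.616 ± 0.191 CPM in vehicle and 1.15 ± 0.27 CPM at the high dose (SD, n = 5, log2 fold change 0.90, SE 0.27, adjusted p = 0.0153).

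**Figure D2:**
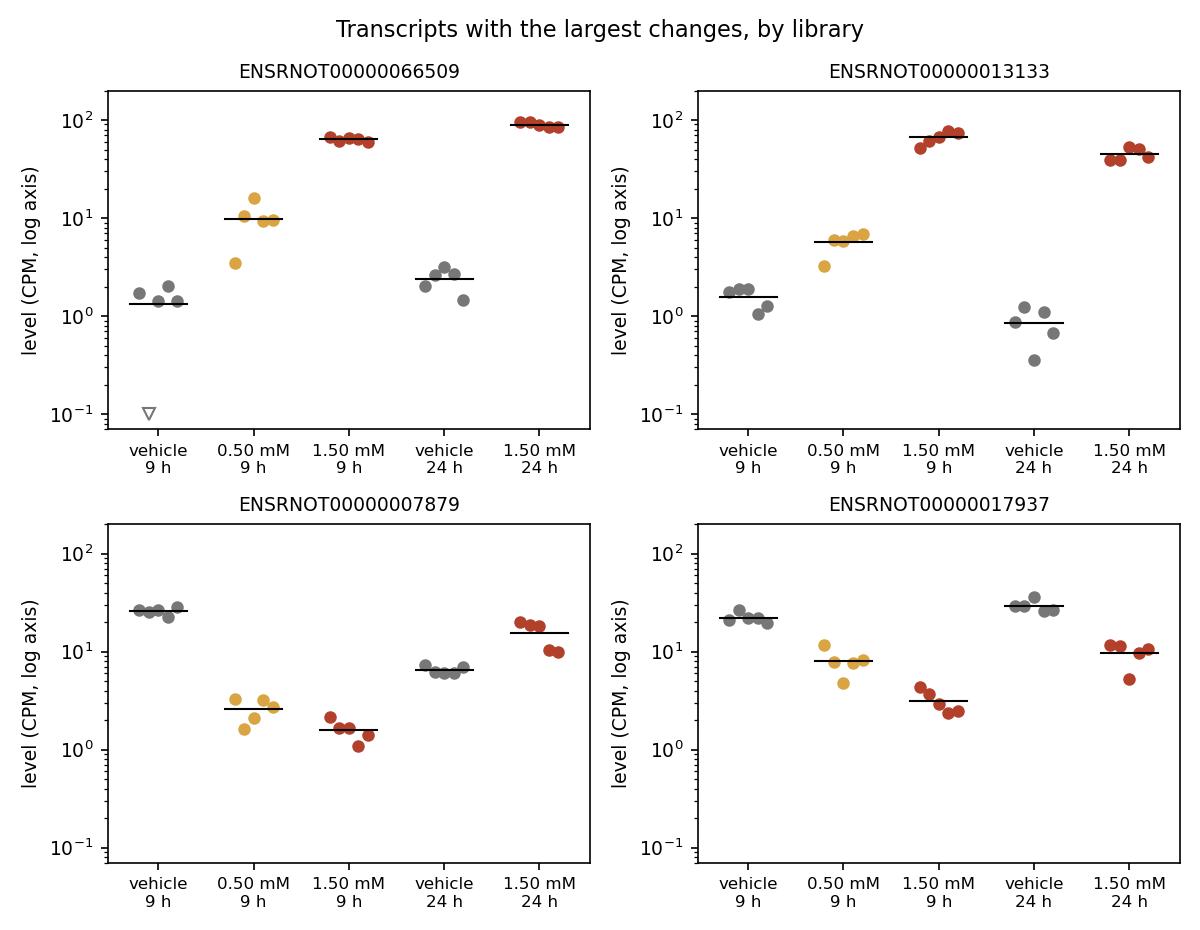
Level (CPM, log axis) of the 4 transcripts in each library of 5 cardiomyocyte groups, with points for libraries and a line for the group mean. The open triangle marks a library at 0 CPM, drawn at the foot of the axis. ENSRNOT00000007879 lies between 1.08 and 2.13 CPM at 1.50 mM at 9 h and between 9.94 and 20.03 CPM at 24 h, on opposite sides of its vehicle group.

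The low dose (0.50 mM) at 9 h was compared with the same 5 vehicle libraries, so its values are set beside those of the high dose only as levels. By the same criteria, 219 transcripts were higher and 195 lower at the low dose, 2.41% of those tested in either direction, and without MS-158 these numbers were 421 and 354. ENSRNOT00000066509 held 3.50 to 15.9 CPM there and ENSRNOT00000013133 held 3.28 to 6.79 CPM, both ranges between those of vehicle and the high dose. The lowest value of each was that of MS-156, and the next lowest were 9.25 and 5.80 CPM. The 15.9 CPM was that of MS-158, and without it the highest was 10.4 CPM. For ENSRNOT00000017937 the low-dose range, 4.80 to 11.6 CPM, was likewise intermediate, and without MS-158 it was 7.56 to 11.6 CPM. The 11.6 CPM was that of MS-156, and the next highest was 8.16 CPM. ENSRNOT00000007879 was different in that its low-dose libraries, at 1.62 to 3.30 CPM, already overlapped the high-dose range of 1.08 to 2.13 CPM.

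How far the response at 9 h was also seen at 24 h could be read from separate libraries, 5 of vehicle and 5 of 1.50 mM. At 24 h, 1039 transcripts were higher (6.01% of 17286 tested) and 1105 were lower (6.39%). Of the transcripts higher at 9 h, 449 were higher at 24 h as well, which is 40.4% of the 9 h list and 43.2% of the 24 h list. Of the transcripts lower at 9 h, 513 were lower at 24 h, 44.8% of the one list and 46.4% of the other. Without MS-178, 1134 were higher and 1333 lower at 24 h, and the shared transcripts numbered 479 and 559. The sign was the same at both times for 88.2% of the higher transcripts and for 83.5% of the lower ones, counting those tested at both times. Over 17108 transcripts, the log2 fold changes at 9 and 24 h had a Pearson correlation of 0.54 and a Spearman correlation of 0.44. These are correlations across transcripts, which are not independent replicates, although the comparisons share no library.

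Larger increases at 9 h were more often called at 24 h too. Among transcripts that rose by 1.5-fold to 2-fold, 27.5% were called higher at 24 h, between 2-fold and 4-fold this was 51.4%, and from 4-fold upward it was 59.1%, each taken over all members of the size class. The last class had 176 members, of which 135 were tested at 24 h and 104 were called, or 148 and 115 without MS-178. Their median log2 fold change, over those tested at both times, was 2.66 at 9 h and 2.25 at 24 h. For the decreases, the shares called lower at 24 h were 37.1%, 56.1% and 53.4% in the same size classes. Without MS-178 these shares were 28.0%, 55.7% and 65.3% for the increases and 40.2%, 61.7% and 56.9% for the decreases. Transcripts that fell by at least 4-fold had a median log2 fold change of -2.29 at 9 h and -1.63 at 24 h, and without MS-178 the latter was -1.45.

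**Figure D3:**
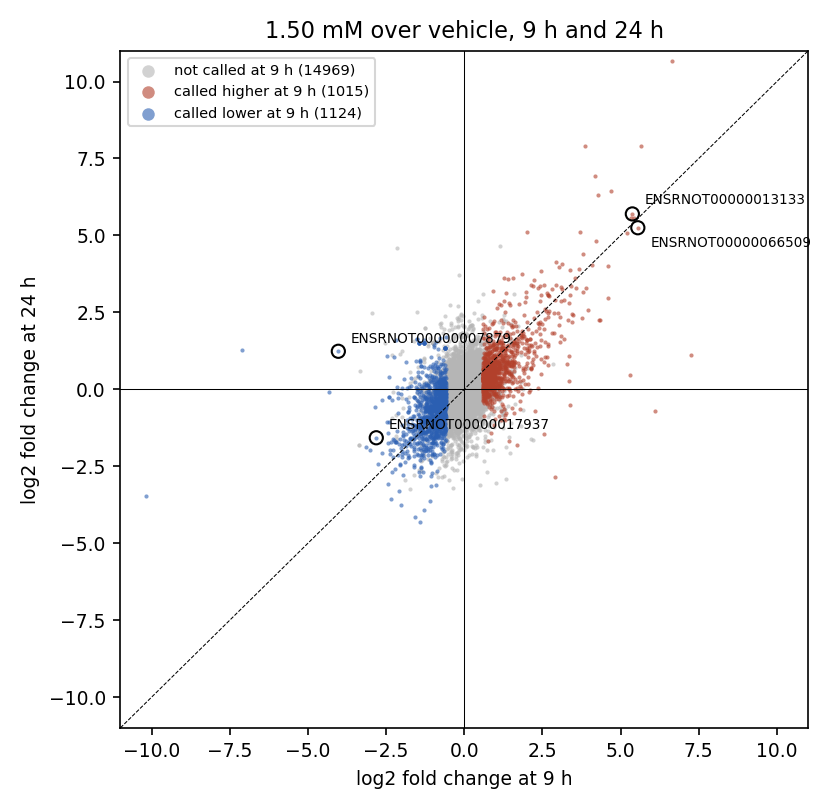
Log2 fold change of 1.50 mM over vehicle at 9 h (horizontal) and at 24 h (vertical), 1 point per transcript tested at both times, coloured by the call at 9 h. The dashed line marks equal changes, and 88.2% of the red points lie above 0 at 24 h and 83.5% of the blue points below 0. ENSRNOT00000007879 lies in the upper left, lower at 9 h and higher at 24 h.

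Seen from the other side, the lists called at 24 h separated the 9 h libraries as well. In each high-dose library at 9 h, the 1039 transcripts higher at 24 h had a median difference from the mean of the vehicle libraries of 0.41 to 0.49 on the log2(CPM + 0.5) scale, compared with -0.0053 to 0.020 in the vehicle libraries, each measured against the other 4. The 1105 transcripts lower at 24 h had a median difference of -0.59 to -0.39 at the high dose and of -0.0076 to 0.014 in vehicle. With the lists called without MS-178, the medians at the high dose were 0.40 to 0.46 and -0.52 to -0.36. At the low dose, without MS-158, these medians were -0.036 to 0.069 and 0.018 to 0.15. With MS-158 the lowest median for the higher list was -0.24. The lists were thus shifted in the high-dose libraries, whereas in the low-dose libraries the median shift was small or in the other direction.

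A test of the difference itself gave 3838 of 18288 transcripts whose response to the high dose differed between 9 and 24 h (21.0% of those tested). It used an adjusted p of at most 0.05 without the fold threshold of the other calls. Among the transcripts higher at 9 h, 414 of the 1104 tested differed, 341 with a larger and 73 with a smaller increase at 9 h. Of those lower at 9 h, 452 of 1141 differed, 356 with a larger and 96 with a smaller decrease at 9 h. Because the members were called at 9 h, a larger change at 9 h is partly built into this count. The members with the smaller change at 9 h are not subject to that. A turn of direction, as in ENSRNOT00000007879, was called in both comparisons for 41 transcripts that were lower at 9 h and higher at 24 h, and for 10 that were higher at 9 h and lower at 24 h. Tested at 24 h were 1124 of the lower and 1015 of the higher members. Over all transcripts tested at 24 h, 6.01% were higher and 6.39% lower, so such turns were less frequent than calls in those directions over all transcripts. In all of the turns the difference between the times was also called. Without MS-178, 4236 of 18559 transcripts differed between the times (22.8%), among them 448 of the 1111 higher members tested (376 with a larger and 72 with a smaller increase at 9 h) and 488 of the 1145 lower ones (386 with a larger and 102 with a smaller decrease), and a turn of direction was called for 43 and 13.

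Doses were not the same in the other cell types, so the next values stand side by side as exposures. Renal cells at 0.5 mM for 9 h had 8.16% of the transcripts tested higher and 10.9% lower, and hepatocytes at 0.125 mM for 9 h had 8.48% higher and 9.95% lower. Of the 1112 transcripts higher in cardiomyocytes, 291 (26.2%, or 20.01% of the renal list) were higher in renal cells and 124 (11.2%, or 8.80% of the hepatocyte list) in hepatocytes. Of the 1145 lower ones, 350 (30.6%, or 18.0% of the renal list) were lower in renal cells and 152 (13.3%, or 9.20% of the hepatocyte list) in hepatocytes. Only 965 of the higher and 912 of the lower members were tested in renal cells, and 860 and 679 in hepatocytes. The shares of all members are thus lower than they would be over the members tested, the base used for all transcripts. Changes in the opposite direction were called for 72 of the higher and 51 of the lower members in renal cells and for 103 and 78 in hepatocytes. In hepatocytes, the number of higher transcripts called the same way thus came close to the number called the opposite way. Pearson correlations of the log2 fold changes were 0.33 with renal cells (16482 transcripts) and 0.04 with hepatocytes (14995 transcripts). The Spearman correlations were 0.31 and 0.10.

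All 3 cell types shared 49 higher and 55 lower transcripts. At the other end, 746 of the higher (67.1%) and 698 of the lower transcripts (60.96%) of the cardiomyocytes were called the same way in neither of the other cell types, although 303 and 528 of the members were not tested in both, being too scarce in at least 1 of them. For increases of at least 4-fold, 70 of 176 transcripts (39.8%) were also called higher in renal cells, where the median log2 fold change of the 122 tested was 1.07. In hepatocytes 17 of the 176 (9.66%) were called higher, and the median over the 117 tested was -0.24. Again without a fold threshold, the difference between responses was called for 8314 of 19253 transcripts between cardiomyocytes and renal cells (43.2%) and for 7641 of 19504 between cardiomyocytes and hepatocytes (39.2%). Against this, 722 of the 1101 higher transcripts tested (65.6%) and 636 of the 1135 lower ones (56.0%) differed from renal cells, and 748 of 1102 (67.9%) and 532 of 1138 (46.7%) differed from hepatocytes. The members were called in the cardiomyocytes, so a difference is again partly built into these counts.

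Transcripts that mark the cardiomyocytes among the 3 cell types tended to be lower after the high dose. The class was set from other libraries: a mean of at least 5 CPM in cardiomyocytes with vehicle for 24 h, and at least 8 times the mean of vehicle-treated renal cells and of hepatocytes. It is called cardiomyocyte-enriched here for its level only. In this class 466 transcripts were found and 459 were tested at 9 h. Of these, 179 were lower (39.0%) and 19 were higher (4.14%), and the median log2 fold change was -0.43. Among all 12006 transcripts tested that reached 5 CPM in the same libraries, 6.40% were lower and 4.31% higher, with a median of -0.0014. The direction was common to most of the class, with 389 of 459 below 0 (84.7%), compared with 49.1% of all transcripts tested. By at least 2-fold, 99 members of the class were lower (21.6%), against 2.65% of all transcripts tested. The class made up 2.57% of the transcripts tested, 15.6% of those called lower and 1.71% of those called higher.

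A stricter definition of the class gave a larger share of decreases. At 4, 8 and 16 times the other cell types, 31.7%, 39.0% and 43.6% of the transcripts tested were lower. By the vehicle level at 24 h, decreases made up 36.8% of the 231 enriched transcripts between 5 and 30 CPM, 48.6% of the 111 between 30 and 100 CPM and 34.2% of the 117 above. At 30 CPM and over, 1 member was called higher. With the depth thinned, 39.2% of the class were lower. With limma on log2(CPM + 0.5) 37.5% were, and on the TPM scale, without scaling factors between libraries, 33.3% were. A second class, chosen after the values were seen, held 588 transcripts that cardiomyocytes shared with renal cells within 2-fold and that were at least 8 times their level in hepatocytes. Of these 10.9% were lower and 4.42% higher, with a median of -0.12. Transcripts at similar levels in all 3 cell types (at least 5 CPM and within 2-fold) moved the least. Of the 5482 tested, 103 were higher (1.88%) and 46 lower (0.839%), around a median of 0.039.

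The same decrease was visible in the composition of each library. The enriched class took 11.01%, 11.15% and 11.33% of the transcript counts (lowest, median and highest of 5) in vehicle at 9 h, and 8.13%, 8.42% and 8.96% at the high dose. These ranges did not overlap. At the low dose it took 10.2% to 11.2% in 4 libraries and 7.39% in MS-158. At 24 h, the vehicle libraries that defined the class had 13.2% to 13.6% and the high-dose libraries 9.00% to 10.4%. In bulk RNA, fewer cells of a type and less of its RNA per cell cannot be told apart. Renal cells, in which the class is scarce, had 0.605% to 0.625% of their counts on it in vehicle and 0.418% to 0.444% at their high dose. Of the 313 members tested there, 104 were lower (33.2%) and 32 higher (10.2%), against 10.9% and 8.16% of all transcripts tested in renal cells, whose vehicle libraries had a part in defining the class. No such shift of the count share was seen in hepatocytes, with 0.0454% to 0.0509% in vehicle and 0.0437% to 0.0565% at the high dose.

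**Figure D4:**
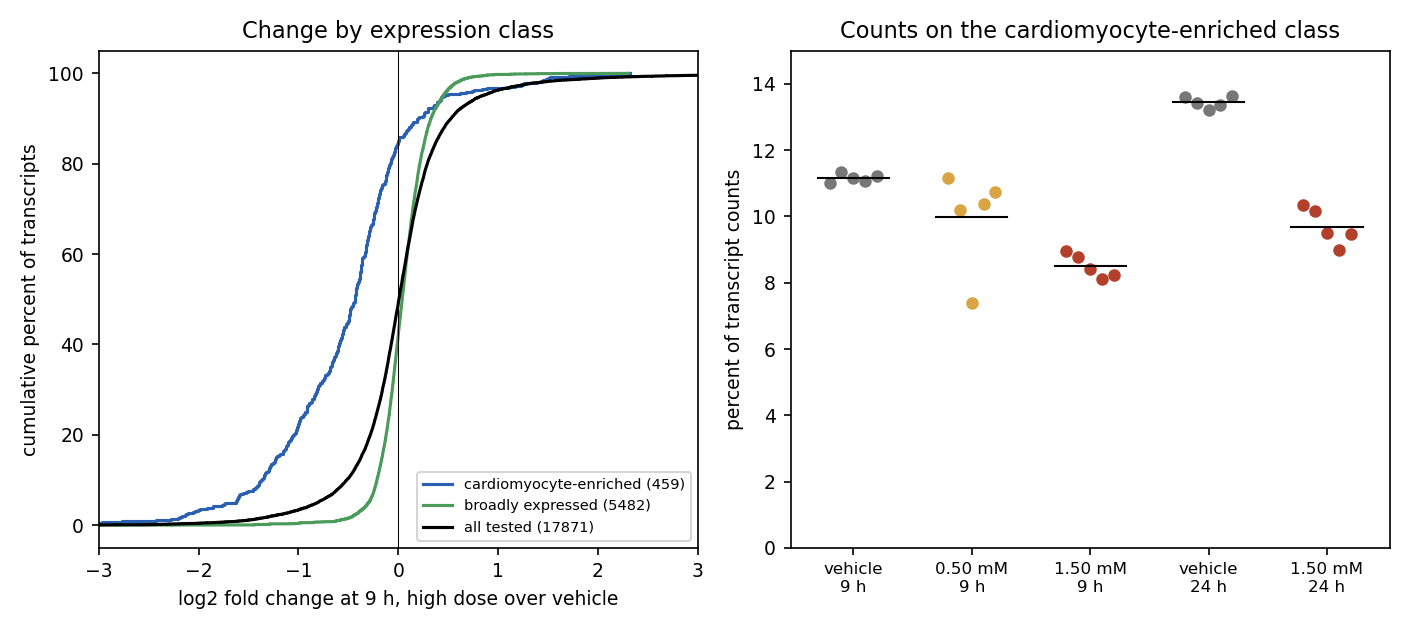
Left, cumulative percent of transcripts by log2 fold change at 9 h (drawn from -3 to 3) for the 459 cardiomyocyte-enriched, the 5482 broadly expressed and all 17871 transcripts tested. Right, percent of transcript counts on the enriched class in each library, with lines for group means. The enriched curve lies to the left, with 84.7% of its transcripts below 0, and the high-dose libraries at 9 h (8.13% to 8.96%) lie below those of vehicle (11.01% to 11.33%).

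The most abundant transcripts took a smaller share of the counts after the exposure. The 100 most abundant transcripts of a library took 26.2 ± 0.25% of the transcript counts in vehicle and 23.9 ± 0.44% at the high dose (SD, n = 5, exact two-sided permutation p = 0.00794, Benjamini-Hochberg adjusted p = 0.0106 over 4 library measures), higher in 5 of 5 vehicle libraries than in any high-dose library. Taken from the TPM, where long transcripts weigh less, the groups overlapped and the difference was -0.696 percentage points (exact permutation p = 0.310). Of the 100 transcripts most abundant in vehicle at 24 h, of which 19 belonged to the enriched class, 79 had a log2 fold change below 0 at 9 h, compared with 49.1% of all transcripts tested. Of the 100, 13 were called lower and 2 higher, against 6.41% and 6.22% of all tested and 6.34% and 4.23% of those at 100 CPM and over. At equal depth, 21484 ± 227 transcripts were detected in vehicle and 22171 ± 95.6 at the high dose (SD, n = 5, exact permutation p = 0.00794, adjusted p = 0.0106), again without overlap. Counting only transcripts with at least 5 counts in a library, the difference shrank from 687 to 274 transcripts (exact permutation p = 0.00794). The share of all counts that fell on transcripts, rather than on the genomic intervals in the same tables, was 91.9 ± 1.75% in vehicle and 93.6 ± 1.004% at the high dose (SD, n = 5, exact permutation p = 0.119).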

How the data were processed

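RNA libraries were poly-A enriched and stranded. The authors quantified them with Kallisto 0.42.4 (per the submitters' processing notes) on the Rnor_6.0 transcriptome and deposited, per library, estimated counts and TPM for each target, with its length and effective length. The 25095 genomic intervals in the tables were left out unless stated. The authors' own Sleuth test was not used here.

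Estimated counts were rounded. Groups came from the labels, and no 2 libraries were identical. The 10 libraries were fitted alone with edgeR 4.0.16 under R 4.3.3 (TMM, filterByExpr, glmQLFTest after glmQLFit), and p-values were adjusted by Benjamini-Hochberg over all transcripts tested. Calls needed both thresholds of the study, 0.05 for the adjusted p and 0.41 for the size of the fold change as a natural log. Differences between responses were contrasts of 4 groups at an adjusted p of at most 0.05. The standard error is the log2 fold change divided by the root of edgeR's F statistic. Levels are CPM with TMM factors over the 50 libraries read. The TPM were used without such factors. Library measures were tested in scipy 1.17.1 by exact permutation. Functions were tested on simulated data.

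The transcripts named were the 2 largest increases and 2 largest decreases among calls whose mean level (log2 CPM) reached 3 and whose groups did not overlap. The comparison, the rules and the classes were chosen with earlier results of these data known. A plan to describe gene lists and marker genes was dropped, because the gene table used (assembly GRCr8) holds no Ensembl identifiers. Alternatives were DESeq2 1.42.0, upper-quartile normalization, other filters and fold thresholds, limma 3.58.1 on log2(CPM + 0.5), all 6 cardiomyocyte groups in 1 fit, whole counts only, intervals included and each library left out. Thinned libraries, limma on log2(TPM + 0.5), fits without MS-158, MS-172, MS-174 or MS-178, the calls shared with 24 h by other tools and the enriched class under other tools were added after seeing the data. Libraries of the comparison held 17583672 to 44028858 transcript counts.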

Additional observations from a re-analysis of the deposited data

Results flagged for a closer look

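Among 43 sets of 5 libraries examined, 3 had a library far from its 4 neighbours by Dixon's criterion, which chance gives in about 1 of 20 sets. Vehicle library MS-153 had 21091 transcripts detected at equal depth, and the other vehicle libraries had 21528 to 21673. At the low dose at 9 h, MS-158 had 7.39% of its transcript counts on the cardiomyocyte-enriched class, and the others had 10.2% to 11.2%. In the same group, MS-156 had 3.28 CPM of ENSRNOT00000013133, and the others had 5.80 to 6.79 CPM.

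Responses to the high dose differed, by edgeR's test of the difference, between 9 and 24 h for 3838 transcripts, between cardiomyocytes and renal cells for 8314 and between cardiomyocytes and hepatocytes for 7641. For ENSRNOT00000066509, the log2 fold change in cardiomyocytes at 9 h exceeded that of renal cells by 5.38 and that of hepatocytes by 8.96. For ENSRNOT00000013133 these differences were 2.62 and 5.63. ENSRNOT00000007879 differed by -5.26 from its response at 24 h, by -3.37 from renal cells and by -3.42 from hepatocytes, where it had under 1 CPM in every library. ENSRNOT00000017937 differed by -1.25 from its response at 24 h, by -1.67 from renal cells and by -3.69 from hepatocytes.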

How the results depend on the processing

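No transcript called higher or lower was called in the opposite direction under any alternative fit. The balance of the calls was less stable, with 49.3% of the called transcripts higher as reported, 46.04% with upper-quartile normalization (1040 and 1219) and 57.6% with limma on the TPM (1040 and 765), and the larger side changed between settings. With limma on log2(CPM + 0.5), which unlike the TPM had scaling factors between libraries, the share was 50.3% (982 and 972). The 4 named transcripts kept their call in all 82 values obtained under alternatives, each transcript counted once per setting, 2 of them not being tested among whole counts. The log2 fold change of ENSRNOT00000066509 ranged from 4.04 to 5.71 and that of ENSRNOT00000017937 from -2.96 to -2.01 over these, the smallest sizes being those of limma on log2(TPM + 0.5). The count of 1112 higher transcripts moved by over 1.5 times in 4 settings and that of 1145 lower ones in 3. They were 4123 and 3964 with no fold threshold, 544 and 473 at a fold change of at least 2, and 504 and 513 among transcripts with whole counts, of which 7221 passed the filter. With all 6 cardiomyocyte groups in 1 fit, 736 were higher and 848 lower, and without MS-158, MS-172, MS-174 and MS-178 this fit gave 1135 higher and 1170 lower. DESeq2 called 1084 and 1174, of which 1062 and 1137 were called by edgeR. The share of the enriched class called lower, 39.0%, was 31.7% at 4 times the other cell types and 33.3% on the TPM scale. The difference in the share on the 100 most abundant transcripts was -0.696 percentage points on the TPM scale (exact permutation p = 0.310). Leaving out each of the 10 libraries gave 995 to 1180 higher and 1028 to 1213 lower transcripts, 3367 to 3647 that differed from 24 h, 8039 to 8282 from renal cells and 7254 to 7446 from hepatocytes, a top-100 difference of -2.42 to -2.17 points and 589 to 734 more transcripts detected, or 274 at a minimum of 5 counts. No paired analysis was possible because the groups share no replicate numbers. The vehicle depth sets the limit for scarce transcripts.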

Other observations

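The low-dose libraries of cardiomyocytes at 24 h entered no comparison above, other than the alternative with all 6 cardiomyocyte groups in 1 fit. In 4 of them, the named transcripts lay apart from vehicle, and in the library labelled MS-174 they lay within the vehicle range or beyond its other end. Of the 4, MS-172 stood apart, with 10519414 transcript counts, 17044 transcripts detected and a length difference of 131 bases. ENSRNOT00000066509 had 23.0 to 35.8 CPM in MS-171, MS-172, MS-173 and MS-175 and 2.31 CPM in MS-174, with 1.47 to 3.18 CPM in vehicle at 24 h. The 35.8 CPM was that of MS-172, and without it the highest was 25.5 CPM. By TPM, MS-172 was instead the lowest of the 4, at 2.44 against 3.69 to 3.96. ENSRNOT00000013133 had 6.74 to 11.5 CPM in these 4 (10.2 to 11.5 CPM without MS-172) and 0.237 CPM in MS-174, with 0.359 to 1.25 CPM in vehicle. ENSRNOT00000007879 had 2.20 to 2.87 CPM in the 4 (2.32 to 2.87 CPM without MS-172) and 8.90 CPM in MS-174, with 6.06 to 7.36 CPM in vehicle. The 4 libraries were thus below the vehicle of 24 h for ENSRNOT00000007879, as were the low-dose libraries of 9 h against their own, while the high-dose libraries of 24 h lay above it. ENSRNOT00000017937 had 11.8 to 18.2 CPM in the 4 (17.6 to 18.2 CPM without MS-172) and 43.1 CPM in MS-174, with 25.7 to 35.7 CPM in vehicle.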
